A study of Mus musculus with 3 samples.

Results

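The genes described here are 9 transcription regulators that mark the dorsal progenitor zone of the spinal cord: the homeobox genes Msx1, Msx2, Msx3, Gsx1, Gsx2 and Lmx1a, the paired-box homeobox genes Pax3 and Pax7, and the PR-domain zinc finger gene Prdm13. They were taken by gene name from the deposited gene table. All 9 were found among 51826 genes, all 9 were among the 18074 measured genes (those with 20 or more counts in any library), and 22 annotated transcripts belonged to them. RNA came from spinal cords of C57BL/6 mouse embryos at embryonic day 13.5, with 1 library for each of 3 genotypes. The first was wild type (WT). The second, dE3, was Nestin-Cre;Ctnnb1-floxed(Ex3), in which Cre removes exon 3 of Ctnnb1, a gain of function per the labels. The third, cKO, was Nestin-Cre;Ctnnb1-floxed(Ex2-6), in which exons 2 to 6 are removed, a loss of function per the labels. Ctnnb1 encodes β-catenin, the carrier of canonical Wnt signals, and Nestin-Cre acts mainly in neural progenitors and their offspring. Cells without Cre activity keep an intact gene, and the labels do not state which cells recombined. The labels give neither the number of embryos per library nor whether WT embryos carried Cre. The comparisons ask how stabilised and missing β-catenin alter the RNA of the cord.

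As background, BMP and Wnt proteins released by the roof plate at the dorsal midline pattern the dorsal neural tube, and homeobox genes divide its progenitors into domains. Pax3, Pax7 and Msx3 cover broad dorsal territories, Msx1 and Msx2 respond to BMP signals near the midline, and Lmx1a defines the roof plate itself. Gsx1 and Gsx2 mark dorsal interneuron progenitors. Prdm13 acts downstream of Ptf1a in progenitors of inhibitory dorsal neurons and represses excitatory fate.

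In the dE3 library 5 of the 9 genes were at least 2-fold higher than in WT (Msx1, Msx2, Msx3, Pax3 and Prdm13, 2.49- to 5.78-fold) and 3 were at least 2-fold lower (Pax7, Gsx1 and Gsx2, 3.03- to 10.1-fold). Lmx1a was neither. Among all measured genes 6.52% were called higher and 3.78% lower by the same rule, which asked for a ratio of at least 2 and a 95% interval that excluded 1. The median log2 ratio of the 9 genes was 1.32, against 0.00 for all measured genes. With 1 library per genotype there was no replicate check and no p-value. The intervals are exact conditional binomial intervals of counting error only, and the values compare these libraries. In bulk RNA, fewer cells of a type and less RNA per cell cannot be told apart.

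The libraries held 32167470 counts for WT, 34790053 for dE3 and 33048837 for cKO, and the CPM values given here are counts scaled to these totals with TMM factors. Ctnnb1 stood at 544 CPM in the WT library, at 461 in dE3 and at 422 in cKO. These levels also count undeleted exons and unrecombined cells, and are a partial check of the genotypes. Of 11 Wnt feedback genes, which rise when β-catenin is active, 10 were called higher in dE3 and 0 lower, and in cKO 1 was called higher (Notum) and 0 lower. Axin2, a scaffold of the β-catenin destruction complex, stood at 41.3 CPM in the WT library, at 276 in dE3 and at 35.8 in cKO. Markers of the labelled tissue were present in every library, with the neuronal tubulin gene Tubb3 at 1797 to 2069 CPM, while the choroid plexus gene Ttr and the fore- and midbrain gene Otx2 had 0 counts in all 3.

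The promoters shown are that of the gene with the largest excess in dE3 (Prdm13), that of the only gene called in both mutants (Msx3) and that of the gene with the largest deficit in dE3 (Gsx2). Each is the 250 bases before the RefSeq start on GRCm38.p6, written 5′ to 3′ on the gene's strand, at chr4:21685964-21686213 (minus), chr7:140049089-140049338 (minus) and chr5:75075351-75075600 (plus). Capitals mark matches, on either strand, to the TCF/LEF core CTTTGA, the homeodomain core TAATTA or the BMP-SMAD element GGCGCC.
Prdm13: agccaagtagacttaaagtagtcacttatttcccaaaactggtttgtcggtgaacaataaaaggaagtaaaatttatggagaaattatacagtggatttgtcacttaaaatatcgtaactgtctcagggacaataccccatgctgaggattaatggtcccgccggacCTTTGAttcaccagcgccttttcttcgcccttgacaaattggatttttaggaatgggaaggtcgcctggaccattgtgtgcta
Msx3: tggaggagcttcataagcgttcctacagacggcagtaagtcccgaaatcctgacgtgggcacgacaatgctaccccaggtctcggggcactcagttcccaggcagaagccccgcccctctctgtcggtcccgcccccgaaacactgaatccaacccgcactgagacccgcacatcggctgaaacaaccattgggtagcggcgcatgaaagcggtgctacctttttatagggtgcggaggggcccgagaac
Gsx2: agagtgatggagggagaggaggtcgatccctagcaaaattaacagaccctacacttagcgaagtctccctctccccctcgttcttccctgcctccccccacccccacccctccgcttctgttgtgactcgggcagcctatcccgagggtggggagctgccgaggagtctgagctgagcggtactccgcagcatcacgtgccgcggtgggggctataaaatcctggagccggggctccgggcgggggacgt
The Prdm13 window held 1 TCF/LEF core, which began at position -83 from the start, and the Msx3 and Gsx2 windows held none of the 3 motifs. RefSeq promoters of the same length held a TCF/LEF core in 13.8% of 32851 cases, a TAATTA core in 4.84% and a GGCGCC element in 9.59%. Of the 8 members with a promoter in the table (Pax3 had no entry), Msx2 had 1 TAATTA core, Gsx1 had 1 GGCGCC element, and Msx1, Pax7 and Lmx1a had no match. A match is a description of letters, and its absence says only that these letters are not in this window.

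**Figure D1:**
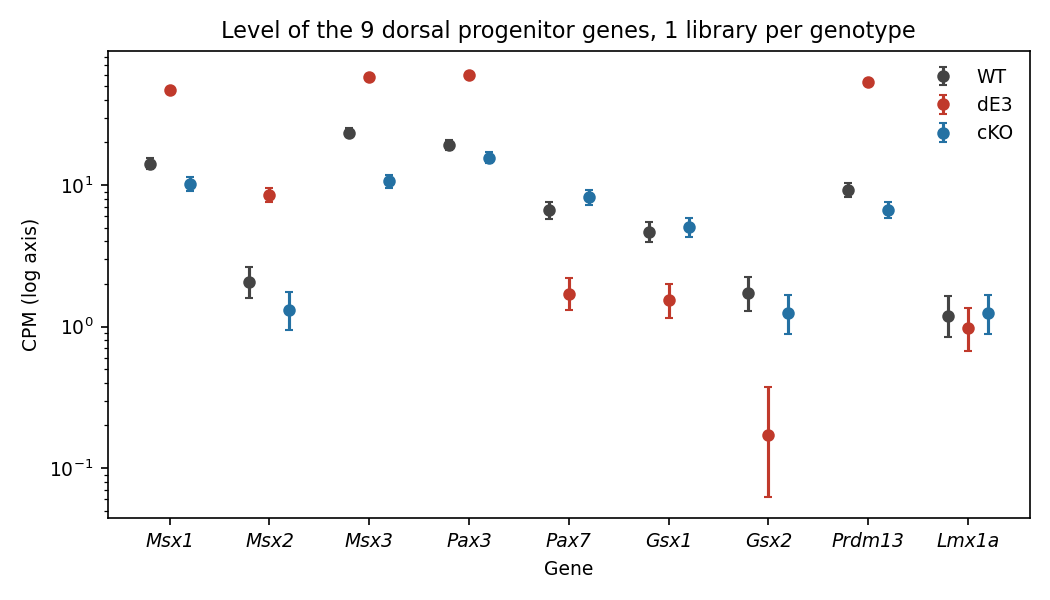
CPM of each gene in the WT, dE3 and cKO libraries on a log axis, with exact Poisson intervals (95%) of counting error. The dE3 points of Msx1, Msx2, Msx3, Pax3 and Prdm13 lie above both other libraries, those of Pax7, Gsx1 and Gsx2 lie below both, and the 3 Lmx1a points overlap.

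Per transcript length, in the TPM values of the authors, the order of levels in WT was Msx3 (26.6), Msx1 (17.9), Pax3 (14.4), Prdm13 (8.92), Gsx1 (6.43), Pax7 (3.27), Gsx2 (2.51), Msx2 (2.15) and Lmx1a (0.857). In dE3 it was Msx3 (67.6), Msx1 (60.8), Prdm13 (47.5), Pax3 (41.3), Msx2 (8.83), Gsx1 (2.14), Lmx1a (0.732), Pax7 (0.725) and Gsx2 (0.239). In cKO it was Msx1 (12.95), Msx3 (12.01), Pax3 (10.3), Gsx1 (6.96), Prdm13 (5.64), Pax7 (3.795), Gsx2 (1.82), Msx2 (1.40) and Lmx1a (0.904). With no replicates, neighbours in these orders cannot be set against a spread between samples. The members' summed TPM was 83.1 in WT, against 230 in dE3 and 55.8 in cKO. The makeup of that sum differed between libraries: Pax7, Gsx1 and Gsx2 supplied 3.94%, 7.74% and 3.02% of it in WT and 0.315%, 0.932% and 0.104% in dE3, while the share of Prdm13 was 10.7% in WT and 20.7% in dE3.

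The Msx genes encode homeodomain repressors that act downstream of BMP signals. Msx1 (ENSMUSG00000048450, chromosome 5, 37820485 to 37824583, minus strand, on GRCm38 as for all loci here) stood at 14.2 CPM in the WT library, at 47.1 in dE3 and at 10.2 in cKO. The dE3 library was the highest and cKO the lowest, with ratios to WT of 3.32 (95% interval 2.99 to 3.70) and 0.718 (0.621 to 0.828). Msx2 (ENSMUSG00000021469, chromosome 13, 53466884 to 53473074, minus strand) stood at 2.07, 8.47 and 1.30 CPM in the same order, from only 66, 297 and 43 counts. Its ratio to WT was 4.10 (3.13 to 5.44) in dE3, and in cKO it was 1.59-fold lower (1.06 to 2.39). Most counts of both genes fell on the spliced coding transcript, and the rest on a form that keeps the intron. Without the transcript that differed most, Msx2 was no longer called in dE3, with a log2 ratio of 1.09 from 14 counts against 6.

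Msx3, whose expression in the embryo is largely limited to the dorsal neural tube, was the only member called in both mutants. Msx3 (ENSMUSG00000025469, chromosome 7, 140046157 to 140049089, minus strand) stood at 23.4 CPM in the WT library, at 58.3 in dE3 and at 10.7 in cKO. It was 2.49-fold higher in dE3 (2.29 to 2.71) and 2.19-fold lower in cKO (1.92 to 2.49). Its 2 coding transcripts differed unevenly in cKO. Msx3-202 was 2.76-fold lower (2.33 to 3.27) and Msx3-201 1.48-fold lower (1.21 to 1.83), and without Msx3-202 the log2 ratio was -0.57 and the call was lost. The Msx3-202 share of the gene's counts was 69.6% (exact binomial 95% interval 66.2 to 72.9) in WT, 70.5% (68.5 to 72.5) in dE3 and 55.2% (49.9 to 60.5) in cKO.

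The Msx genes differed by unlike amounts. Set against Msx3, Msx1 had 1.33 times the WT count ratio in dE3 (exact conditional interval 1.16 to 1.53) and 1.57 times in cKO (1.29 to 1.91). Set against Msx2, Msx1 had 0.810 times the WT count ratio in dE3 (0.599 to 1.08), an interval that includes 1.

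The paired-box genes Pax3 and Pax7 are close relatives with overlapping dorsal expression, and they differed in opposite directions in dE3. Pax3 (ENSMUSG00000004872, chromosome 1, 78101267 to 78197134, minus strand) stood at 19.1 CPM in the WT library, at 60.3 in dE3 and at 15.7 in cKO. Pax7 (ENSMUSG00000028736, chromosome 4, 139737062 to 139833528, minus strand) stood at 6.63 CPM in the WT library, at 1.71 in dE3 and at 8.21 in cKO. Pax3 was 3.16-fold higher in dE3 (2.89 to 3.46), while Pax7 was 3.88-fold lower (2.90 to 5.25), or -1.31 as a log2 ratio on the log2(TPM + 1) scale. In cKO both were within 2-fold of WT, Pax3 at a ratio of 0.820 (0.728 to 0.924) and Pax7 at 1.24 (1.03 to 1.49). The ratio of Pax3 to Pax7 in TPM was 4.40 in WT, against 57.0 in dE3 and 2.72 in cKO. In counts that ratio was 12.3 times the WT one in dE3 (9.01 to 16.8) and 0.663 times in cKO (0.532 to 0.826). Of the 50-base words of Pax7 transcripts 0% occurred in transcripts of another gene, and of those of Pax3 0.275%, none of them in Pax7.

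The division of Pax3 counts between its transcripts set WT apart from both mutants. The 2 coding transcripts share their reading frame up to its last bases. Pax3-201 splices to a further exon, and Pax3-202 reads on past that splice site to an earlier stop. Their last coding bases are shown from the GENCODE vM21 transcripts, with the bases particular to each form, stop codon included, in capitals (chr1:78102801-78102835 and chr1:78103308-78103327, GRCm38, minus strand).
Pax3-201: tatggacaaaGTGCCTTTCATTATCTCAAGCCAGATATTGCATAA
Pax3-202: tatggacaaaGTAAGCCTTGGACGTTCTAG
Pax3-201 took 413 counts in WT, against 408 in dE3 and 58 in cKO, and Pax3-202 took 142, 1582 and 443. The Pax3-202 share of the gene's counts was thus 23.3% (19.98 to 26.8) in WT, 74.8% (72.9 to 76.6) in dE3 and 85.7% (82.4 to 88.6) in cKO. Without Pax3-202 Pax3 had a log2 ratio of 0.05 in dE3 and was no longer called, and without Pax3-201 that of cKO was 1.17, past 2-fold in the other direction. The transcripts differ at their ends, the assignment is an estimate by the authors' tool, and the intervals leave its error out.

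**Figure D2:**
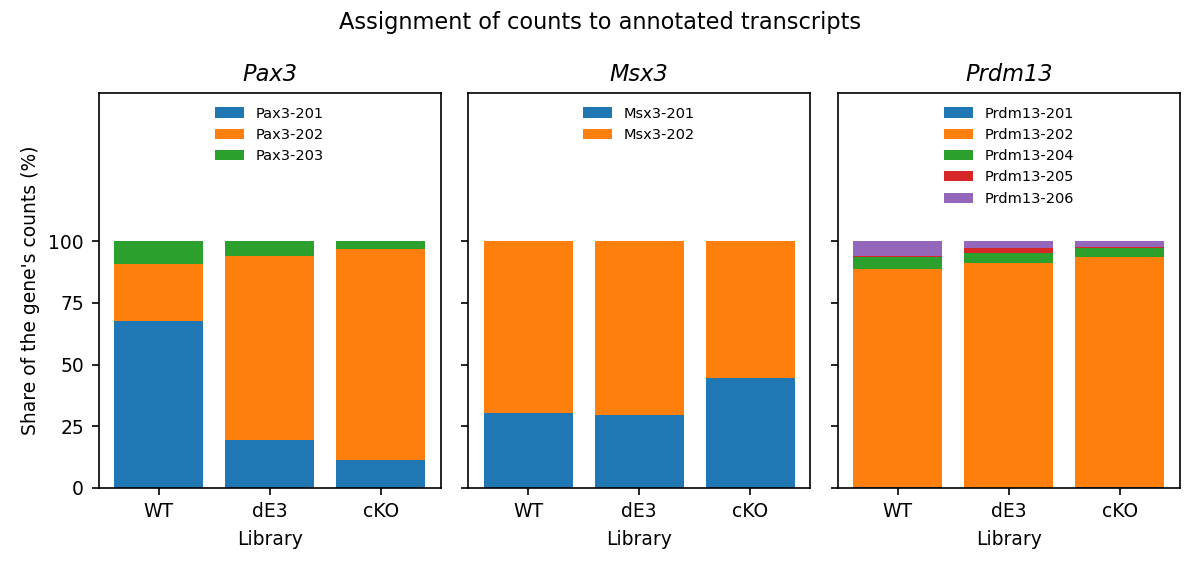
Share of each gene's counts assigned to its annotated transcripts, in percent, for Pax3, Msx3 and Prdm13 in the 3 libraries. Pax3-202 takes 23.3% of Pax3 counts in WT, against 74.8% in dE3 and 85.7% in cKO, while 1 transcript takes most Prdm13 counts in all 3.

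Prdm13 had the largest excess of the 9 genes in dE3. Prdm13 (ENSMUSG00000040478, chromosome 4, 21677480 to 21685963, minus strand) stood at 9.23 CPM in the WT library, at 53.4 in dE3 and at 6.66 in cKO, from 295, 1871 and 220 counts. It was 5.78-fold higher in dE3 (5.11 to 6.56), a ratio that 1.41% of measured genes reached or passed. In cKO its ratio to WT was 0.722 (0.603 to 0.862), within 2-fold. The coding transcript Prdm13-202 took 88.5% of its counts in WT, against 91.2% in dE3 and 93.2% in cKO. Without that transcript Prdm13 had a log2 ratio of 2.14 in dE3 and of -1.23 in cKO, the latter then past 2-fold, from the few counts of the other forms.

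Ptf1a, which acts upstream of Prdm13, had few counts and no detectable difference. Ptf1a had 20 counts in the WT library, against 19 in dE3 and 14 in cKO, and the dE3 ratio of 0.866 had an interval of 0.437 to 1.71. Of the 11 genes of the inhibitory lineage that Ptf1a and Prdm13 promote, 0 were called higher and 1 lower in dE3, with a median log2 ratio of -0.21. The gene called lower was Kirrel2, an adhesion gene and target of Ptf1a, at 2.25 CPM against 4.69. Pax2, the main marker of these neurons, stood at 178 CPM in the WT library, at 195 in dE3 and at 192 in cKO. Genes of the dorsal excitatory lineage, which Prdm13 opposes, had a median of -0.75 in dE3, with 2 of 9 called lower and 0 higher. Those called were Lmx1b, needed for dorsal horn excitatory neurons, at 79.5 CPM against 172, and Tlx1 (4 counts against 43).

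The Gsx genes were called lower in dE3 and were not called in cKO. Gsx1 (ENSMUSG00000053129, chromosome 5, 147188696 to 147190947, plus strand) stood at 4.66 CPM in the WT library, at 1.54 in dE3 and at 5.03 in cKO, and Gsx2 (ENSMUSG00000035946, chromosome 5, 75075601 to 75077893, plus strand) at 1.72, 0.171 and 1.24. Gsx1 was 3.03-fold lower in dE3 (2.20 to 4.21). Gsx2 was 10.1-fold lower (4.34 to 28.6), a wide interval that rests on 6 counts in dE3 against 55. On the log2(TPM + 1) scale, which understates the ratio of a low gene, Gsx2 had a log2 ratio of -1.50. Gsx1 had a cKO ratio of 1.08 (0.859 to 1.35) and Gsx2 one of 0.721 (0.469 to 1.10), and both intervals included 1. The Gsx2 interval, from 41 counts in cKO against 55, also reaches a 2.13-fold deficit. The Gsx1-to-Gsx2 count ratio in dE3 was 3.32 times that in WT (1.32 to 9.95). Prdm13 and Gsx1, both of dorsal interneuron progenitors, differed in opposite directions, and their count ratio in dE3 was 17.5 times that in WT (12.4 to 24.9).

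Lmx1a, the roof plate determinant, had few counts and no detectable difference. Lmx1a (ENSMUSG00000026686, chromosome 1, 167689237 to 167848741, plus strand) had 38 counts in the WT library, against 34 in dE3 and 41 in cKO. Its ratio to WT was 0.816 (0.498 to 1.33) in dE3 and 1.04 (0.655 to 1.67) in cKO, and the dE3 interval reaches a 2-fold deficit, so a smaller one was not detectable at this depth. Its 2 transcripts differed in opposite directions in dE3. Lmx1a-201 had 22 counts there against 38 in WT, 1.89-fold lower (1.09 to 3.36), and 41 in cKO. The transcript Lmx1a-202 had 12 counts in dE3 and 0 in the other libraries. Other roof plate signals gave a mixed picture, with 1 of 8 called higher in dE3 (Bmp4, 4.54 CPM against 1.66) and 1 lower (Wnt1, 1.11 against 4.63). Bmp4 was also the 1 gene of these called higher in cKO, at 3.54 CPM (ratio 2.14, 1.53 to 3.01), and 0 were called lower there. The median log2 ratio of the 8 was -0.34 in dE3 and 0.57 in cKO. Gdf7, a BMP of the roof plate, had 15 counts in the WT library, against 16 in dE3 and 30 in cKO.

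**Figure D3:**
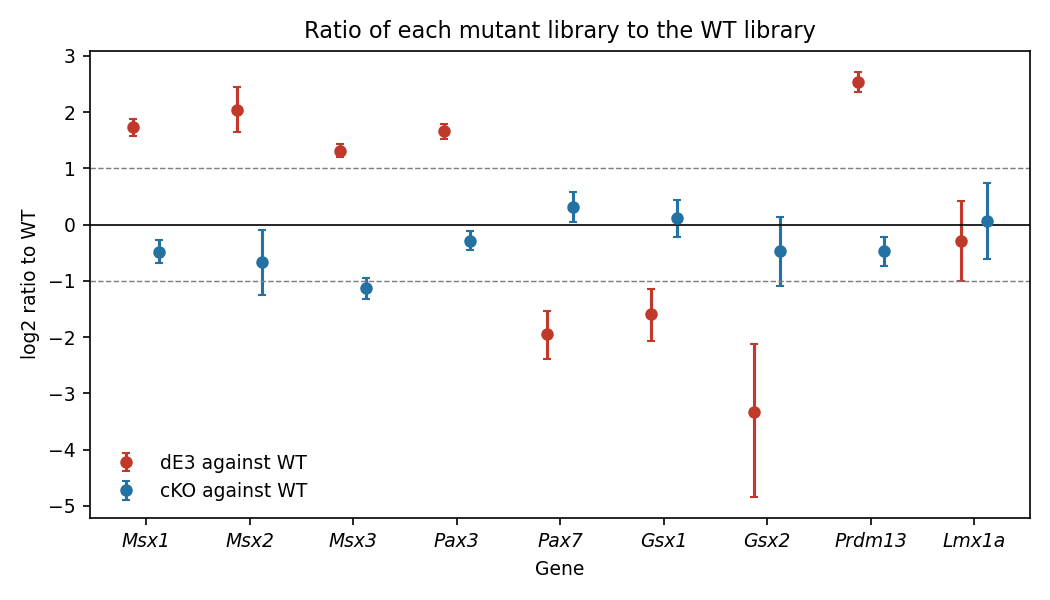
Log2 ratio of dE3 and of cKO to WT for each gene, with 95% intervals of counting error; dashed lines mark 2-fold. In dE3 5 genes lie above the upper line and 3 below the lower one, and in cKO Msx3 alone passes a line.

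In cKO the departures from WT were small. Of the 9 genes 1 was called lower (Msx3) and 0 higher, where 3.41% and 3.48% of measured genes were called, and the median log2 ratio was -0.47 against 0.00 for all measured genes. At any ratio, 5 genes had an interval below 1 (Msx1, Msx2, Msx3, Pax3 and Prdm13), against 26.7% of measured genes, and 1 had an interval above 1 (Pax7), against 27.2%. The same 5 genes were the ones called higher in dE3, and both comparisons share the WT library. The direct comparison of dE3 with cKO leaves WT out but uses the same mutant libraries, so it is no separate check of the directions in cKO. In it 5 genes were called higher and 3 lower, where 6.62% and 4.38% of measured genes were. The ratios were 8.01 for Prdm13 (6.96 to 9.26), 6.51 for Msx2 (4.71 to 9.18), 5.45 for Msx3 (4.87 to 6.12), 4.63 for Msx1 (4.12 to 5.22) and 3.85 for Pax3 (3.50 to 4.25). Pax7 was 4.79-fold lower in dE3 than in cKO (3.61 to 6.45), Gsx1 3.26-fold (2.39 to 4.52) and Gsx2 7.25-fold (3.06 to 20.9).

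Genes related to the 9 by domain or by signal differed less evenly. Of 12 other dorsal progenitor factors 3 were called higher in dE3, Zic2 and Zic5 among them, and 2 lower, Atoh1 among them, with a median log2 ratio of 0.50. In cKO 1 was called lower (Atoh1, 10 counts against 38) and 0 higher, with a median of -0.28. Zic5, a zinc finger gene of the dorsal neural tube, was 4.42-fold higher in dE3 (4.06 to 4.83), and Olig3, of the dorsalmost progenitors, stood at 35.0 CPM against 18.9, within 2-fold. The 8 BMP response genes had 0 called in either direction in both mutants, with medians of -0.18 in dE3 and 0.16 in cKO. Among them Id3, an inhibitor of bHLH factors, came nearest to the threshold in dE3, at 82.8 CPM against 42.7. Of 9 measured ventral and intermediate progenitor factors (11 listed), 3 were called lower in dE3 (Dbx1, Dbx2 and Olig2) and 0 higher, with a median of -0.56. General neural progenitor genes had a median of 0.07 in dE3, with 1 of 11 called higher and 3 lower, and their summed level was 1814 CPM in WT, against 1808 in dE3 and 1571 in cKO. The 9 pan-neuronal genes had 0 called in both mutants, with medians of -0.35 in dE3 and -0.13 in cKO. In cKO 0 genes were called in the inhibitory, excitatory, ventral and neural progenitor lists, with medians of -0.23, -0.15, 0.14 and -0.17. Sox2, the pan-progenitor factor, stood at 94.2, 125 and 73.4 CPM in WT, dE3 and cKO. The neural progenitor genes called lower in dE3 were Fabp7 (146 CPM against 446), Sox1 (6.88 against 20.2) and Sox3 (4.14 against 8.76). Hes5 was the one called higher in dE3, at 66.8 CPM against 29.1. The near-equal sums of that list in WT and dE3 thus join genes that differed in opposite directions.

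**Figure D4:**
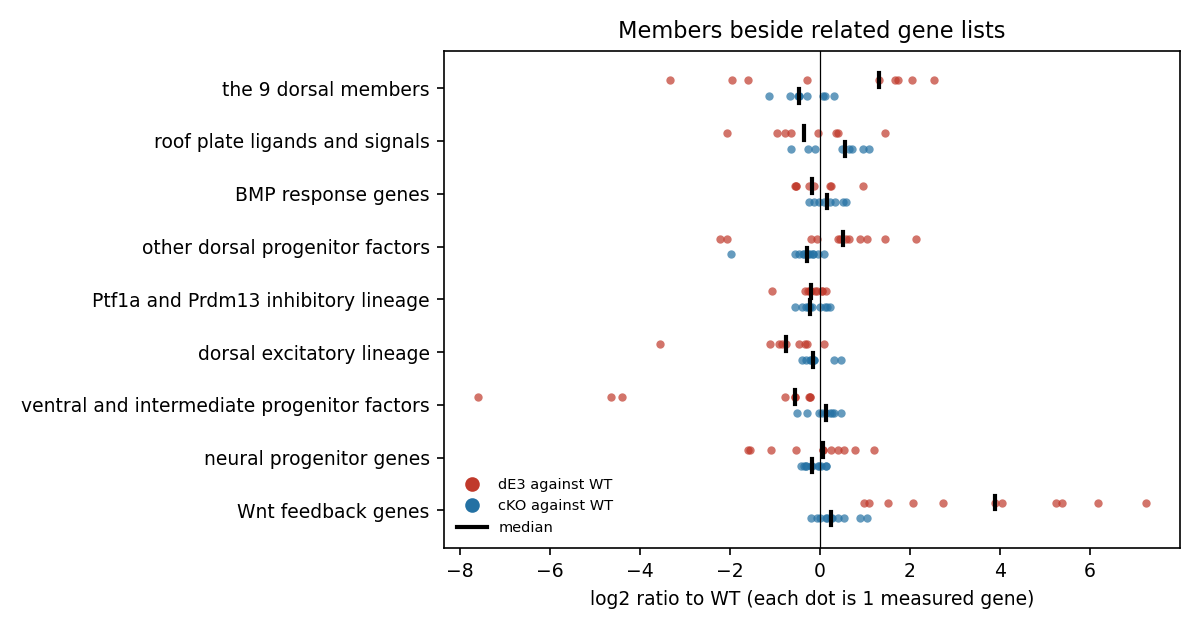
Log2 ratio to WT of each measured gene, in rows for the 9 dorsal genes and 8 related lists, with bars at the medians. The 9 genes reach from -3.33 to 2.53 in dE3, while the 8 BMP response genes all stay within 2-fold.

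Several of the 9 genes are also expressed outside the cord: Pax3 and Pax7 in muscle precursors, Pax3 in neural crest and melanoblasts, Msx1 and Msx2 in mesenchyme, cartilage precursors and epidermis. Levels of marker genes of several such tissues were not equal between libraries. In dE3, 11 of 12 measured skeletal muscle genes (14 listed) were called higher than in WT, and in cKO 8 of 12. Myog, a factor of differentiating muscle, stood at 0.657, 9.47 and 2.39 CPM in WT, dE3 and cKO. The summed level of the muscle genes was 106 CPM in WT, against 250 in dE3 and 131 in cKO, of which Lbx1, also a gene of dorsal neurons, supplied 93.5, 73.8 and 84.8. Myf5, Myf6, Tnni1 and Ckm had 0 counts in WT, and Myf6 and Ckm had 0 in cKO. All 9 cartilage and vertebra genes were called higher in dE3 and 8 in cKO, with sums of 155, 908 and 403 CPM. Of 11 meninges and mesenchyme genes 5 were called higher in dE3 and 4 in cKO, with sums of 667, 1266 and 1512 CPM. Of 8 measured epidermis genes (9 listed) 6 were called higher in dE3 and 2 in cKO, with sums of 9.20, 23.4 and 11.3 CPM, and Krt8 had 0 counts in WT. Whether the RNA of these markers came from such tissues was not tested. The part of such tissues in the excess of Msx1, Msx2 and Pax3 in dE3 was not tested either. The 8 Schwann and neural crest genes had 0 called in both mutants, with sums of 442, 468 and 525 CPM. Of the 6 melanoblast genes 3 were measured, with 1 called higher and 1 lower in dE3, the sum of 115, 108 and 116 CPM was nearly all Kit, and Tyr in WT, Tyrp1 in dE3, and Dct and Tyrp1 in cKO had 0 counts. Of the 6 choroid plexus and hindbrain roof genes 2 were measured, with 1 called higher (Clic6) and 1 lower (Kl) in dE3. Clic6 was also called higher in cKO, and the sums of the list were 2.35, 2.51 and 3.39 CPM.

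**Figure D5:**
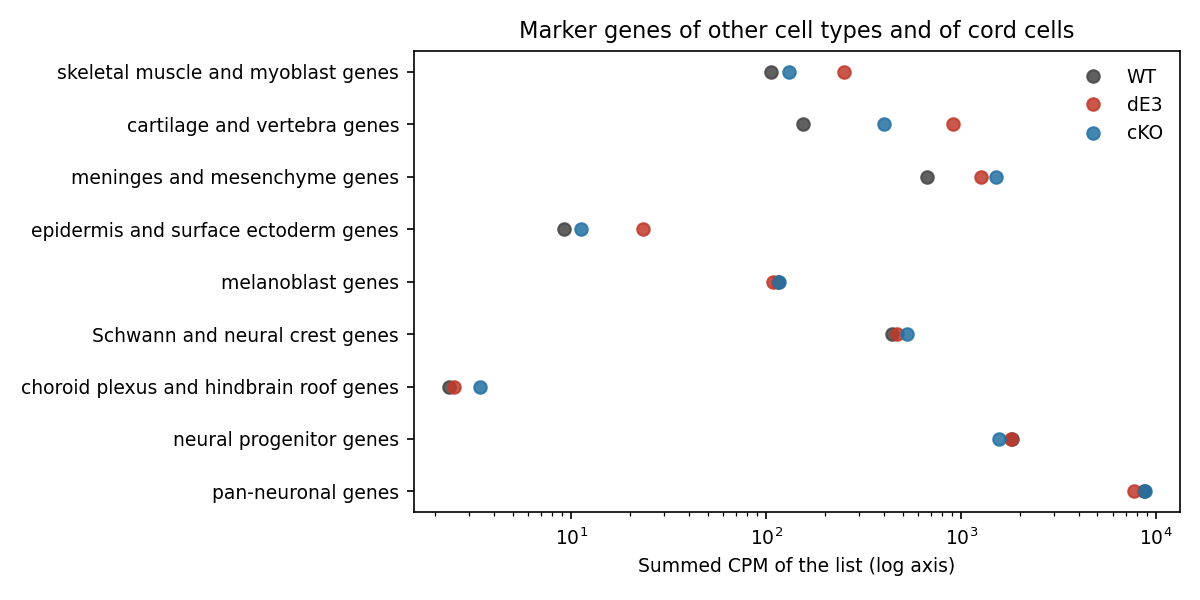
Summed CPM of marker lists in the 3 libraries, on a log axis. Muscle, cartilage and epidermis sums are highest in dE3, the mesenchyme sum is highest in cKO, and the neural progenitor and pan-neuronal sums lie close together.

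Among 12521 named genes with at least 100 counts in at least 1 library, those nearest to a member were taken by Euclidean distance between the pairs of log2 ratios (dE3 and cKO, each against WT), over 3 libraries. Nearest to Pax3 was Ptn, which encodes the secreted growth factor pleiotrophin, at a distance of 0.06, with 518 CPM in WT, against 1623 in dE3 and 409 in cKO. The next were Zar1 and the BMP antagonist gene Grem1. For Msx1 they were Medag, Stk17b and Zar1, for Msx3 Rab11fip1, the BMP antagonist gene Chrdl1 and the Hippo pathway factor Tead1, for Prdm13 Cep112, Efcc1 and Adamts20, and for Gsx2 Mfsd4a, Usp49 and the lipase gene Lipg. The nearest gene to Gsx2, Mfsd4a, lay 0.55 away.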

How the data were processed

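RNA of spinal cord was measured in 3 libraries, 1 per genotype, and each was grouped by its genotype label. Per the submitters' processing notes, CASAVA, Bowtie2 2.3.2 and the build GRCm38.p6 were used, in roles they do not state. How counts were estimated, on which annotation and with which strand setting is not given in the sources used here. The authors deposited estimated counts per gene and transcript, in whole numbers, each beside its TPM and FPKM value, per the file headers. The deposited FPKM values were not used further, and the deposited TPM values served for levels per length and as an alternative.

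A gene was taken as measured from 20 counts in any library. Counts were scaled by TMM factors of 0.993 (WT), 1.01 (dE3) and 0.999 (cKO) (edgeR 4.0.16 in R 4.3.3). Ratios of scaled counts carry exact 95% intervals from the conditional binomial distribution (scipy 1.17.1), and the script was tested on simulated data. As reads have no molecular identifiers, intervals cover counting error only. A gene or transcript at 0 counts was set at a floor of 3 counts for its ratio. Calls and list medians used that ratio, while the intervals used the observed counts. The design allows no count model across genes, since no genotype has a replicate.

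The members and the 16 gene lists (151 symbols, 2 matched by synonym) were chosen with earlier results of these data known. The genes named were Ctnnb1, the 9 members, up to 4 genes of each list (those past 2-fold first, then the most abundant), and the 3 nearest to each of 5 members. Ptf1a, Pax2, Gdf7, Olig3, Id3, Sox2, Tubb3, Ttr, Otx2 and the genes listed as at 0 counts were named outside that order, after their values were seen. Loci were identical in GENCODE vM21 (GRCm38), where no other gene overlapped a member. Some genes of the lists are counted but not reported by name here. Genes lying within 250 kb of a member were also named: those called, and Pdgfra and Chic2 beside Gsx2. Alternatives covered scaling, count minimum, fold threshold, unit and transcript.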

Additional observations from a re-analysis of the deposited data

How the results depend on the processing

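Counts of members called in dE3 against WT, and in dE3 against cKO, stayed within 1.5 times of those reported under library size alone, DESeq2 1.42.0 size factors, no minimum count, at least 100 counts, thresholds of 1.5-fold and 3-fold, the authors' TPM with pseudocounts of 0.1 and 1, and removal of the most different transcript. In cKO against WT, where 1 member was called and it was lower, 2 were called at 1.5-fold, both lower (2, with Msx2 added), and 0 at 3-fold, with 0 lower. Without each member's most different transcript 2 were called there, Pax3 higher and Prdm13 lower, while Msx3 lost its call at a log2 ratio of -0.57. That removal also took the call from Msx2 and Pax3 in dE3 against WT, and from Msx2 (0.91) in dE3 against cKO. Lmx1a gained a call in both of these comparisons, so the members called were not all the same ones. Genes with 1 counted transcript (Gsx1, Gsx2 and, in WT and cKO, Lmx1a) kept their values under that alternative. It turned 5 directions: Lmx1a was then 1.87 on the log2 scale in dE3 against WT and 1.91 in dE3 against cKO, from 12 counts against 0 set at the floor, while in cKO against WT Pax3 was 1.17, Msx2 0.17 and Pax7 -0.46. With TPM and a pseudocount of 1, which shrinks ratios of low genes, Gsx2 was -1.50 in dE3 against WT and -1.19 in dE3 against cKO, Pax7 -1.31 and -1.48, and Msx2 2.03 in dE3 against cKO. Of 237 member values under the alternatives, 222 kept their call and, where uncalled, also stayed within the main counting interval. A further 4 stayed uncalled but left that interval. No paired analysis was possible because each genotype has 1 library, and for the same reason none could be left out. Depth limits Gsx2, Lmx1a and Msx2, each with under 100 counts in WT.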

Other observations

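Genes that lie beside the 9 members are given here as values. Within 250 kb of a member the GENCODE vM21 annotation places 38 other protein-coding genes that were measured. In dE3 against WT 2 of them were called higher and 1 lower, with a median log2 ratio of -0.07, and in cKO 2 were called higher and 2 lower, with a median of 0.06. Those called higher were the same in both mutants, which share the WT library: Cytl1, a cartilage-associated secreted protein gene 80 kb from Msx1, at 0.313 CPM in the WT library, at 3.40 in dE3 and at 1.64 in cKO, and the Wnt receptor gene Ror2, 180 kb from Msx2, at 6.23, 23.3 and 13.7 CPM. Adgra1, an adhesion receptor gene 168 kb from Msx3, was the gene called lower in dE3, at 10.6 CPM against 23.1. Those called lower in cKO were Usp45, 81 kb from Prdm13, at 12.6 CPM against 29.7, and Klhdc7a, 126 kb from Pax7, with 0 counts against 23. The 6 measured neighbours of Prdm13 had dE3 ratios of 0.88 to 1.18. Beside Gsx2, Pdgfra, a receptor gene of mesenchyme and glial precursors, stood at 43.1 CPM in the WT library, at 67.4 in dE3 and at 64.1 in cKO, and Chic2 at 42.2, 37.8 and 36.5 CPM. The window was chosen after the members' values were seen.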
